A study of Mus musculus with 6 samples.

Results

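The cytochrome P450 genes were followed in RNA of 6 mouse large intestine samples. They were taken as every row of the gene table whose symbol is Cyp with a family number, a letter and a member number, which gave 98 of 35434 rows. Pseudogenes written with -ps and Cyp51 were not included. A single row, Cyp4x1os, is a transcript from the strand opposite Cyp4x1 and not a P450 gene. Of the 98 rows, 29 were at FPKM 1 or more in at least 3 libraries and could be tested, 38 were above 0 in some library but under that level, and 31 were at 0 in all 6 libraries. FPKM divides the fragments of a gene by its length in kilobases and by the library total in units of 1e6, so levels can be set side by side between genes.

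The study moved regulatory T cells (Tregs), either control Tregs or Tregs treated with the multikinase inhibitor lenvatinib, into mice with inflammatory bowel disease. The libraries are labelled int 3 (int 3-1, int 3-2 and int 3-3) and int 2 (int 2-1, int 2-2 and int 2-3). The labels do not say which of them received which Tregs, so no treatment is given to either, and differences are int 3 minus int 2. Strain, age, sex, the way disease was induced and the stretch of intestine taken are not given in the sources used here. Nothing states that each library is a different animal, so p-values measure the spread between these libraries, which may be technical. The tissue is whole intestine, in which fewer cells of a type and less RNA per cell cannot be told apart.

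Cytochromes P450 are heme enzymes that use oxygen and electrons from NADPH to put a hydroxyl or epoxide group on a substrate. Most sit in the endoplasmic reticulum and take electrons from the reductase Por, while a few in mitochondria take them from Fdxr by way of Fdx1. Families 1 to 3 handle drugs, plant compounds and other foreign molecules, and some of their members also oxidise polyunsaturated fatty acids. Family 4 hydroxylates the ends of fatty acids and eicosanoids, and other families act on sterols, bile acids, steroid hormones, vitamin D and retinoic acid. The gut epithelium is a main site of P450 expression outside the liver.

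The libraries were of even depth, with totals of 34.0 to 35.1 in units of 1e6 fragments, as worked out from the steps of the FPKM values. The 29 tested P450 genes rested on 12 (Cyp2d12 in int 3-2) to 5836 (Cyp2c55 in int 3-2) fragments per library. The int 3 libraries lay far apart and the int 2 libraries close together. Over all 12525 tested genes, the SD of the log2(FPKM + 1) difference between libraries of a group was 0.271 to 0.513 within int 3 and 0.110 to 0.115 within int 2. Over the 29 P450 genes it was 0.811 to 1.60 within int 3 and 0.119 to 0.143 within int 2. The library int 3-1 lay between int 3-2 and int 3-3 for 73.5% of all tested genes. Whether int 3 holds 3 independent samples was not tested, while the p-values count int 3-1 as a separate sample. Values for the 3 libraries of a group are given in the order -1, -2 and -3 throughout. The hindgut homeobox gene Hoxb13 had 146, 16.4 and 267 FPKM in int 3, against 288, 285 and 288 FPKM in int 2. The intestinal homeobox gene Cdx2 ran the other way within int 3, at 50.5, 89.9 and 17.6 FPKM, against 38.6, 37.1 and 36.5 FPKM in int 2. Some other epithelial markers had the order of Cdx2 within int 3, such as Krt20, and some that of Hoxb13, such as Cdx1.

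Among the tested P450 transcripts 2 patterns stood out, while other genes, such as the nearly level Cyp2j6 and Cyp2d26, showed neither. A few genes, led by Cyp2c69 and Cyp4f40, stood apart from int 2 by a like amount in all 3 int 3 libraries. A larger set, with Cyp2c55, Cyp2c65, Cyp2e1, Cyp2f2 and most Cyp2d genes, was spread widely within int 3, with int 3-2 and int 3-3 at the extremes. In the fit across all 12525 tested genes (limma, Benjamini-Hochberg adjusted p under 0.05), 2 of the 29 tested P450 genes rose (6.9%) and 5 fell (17.2%), while 22 did not pass. Of all tested genes 8.64% rose and 6.7% fell, so the share that rose was near the background. Counts within families and subfamilies given below are to be read against these 2 shares. With 1 library left out, 1 to 4 rose and 1 to 12 fell, with the lowest counts without int 2-2 and the highest without int 3-3. Of all tested genes 4.91% were called without int 2-2, 21.0% without int 3-2 and 39.2% without int 3-3. Calls of single genes gained without a library are to be read against these shares. Ranges of adjusted p over all alternatives, given below for single genes, have their low end from a fit with library weights. That fit, whose weight estimation did not converge, called 73.6% of all tested genes, so the low ends carry little weight. The high end of these ranges is from int 2 averaged to 1 sample. The median log2 change was -0.39 over the 29 P450 genes and 0.03 over all tested genes.

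Int 3 values lay wholly above the int 2 values for 3 tested P450 genes (10.3%, against 22.4% of all tested genes) and wholly below them for 11 (37.9%, against 17.9%). They overlapped for the other 15, while 40.4% of all tested genes did not overlap in either direction. Low members passed the level of FPKM 1 through the group in which they were high, so these shares describe the tested genes and not all 98. Between int 3-2 and int 3-3, 10 of the 29 P450 genes (34.5%, against 4.56% of all tested genes) were at least 2-fold apart on FPKM + 1, and in all 10 int 3-1 lay between them, as it did for 99.3% of all tested genes so far apart. Of these 10, Cyp2c55, Cyp2c65 and Cyp2e1 were higher in int 3-2, and Cyp2c68, Cyp2d9, Cyp2d10, Cyp2d12, Cyp2d34, Cyp2f2 and Cyp27a1 were higher in int 3-3. In each of the 10, int 3-1 was close to the int 3 mean, as in Cyp2c55 (42.8 and 44.5 FPKM) and Cyp2d10 (16.0 and 15.8 FPKM). Hoxb13 and Cdx2 moved with these genes within int 3, and their part in the result was not tested. Summed over all 98 rows, P450 transcripts came to 288, 265 and 319 FPKM in int 3 and to 369, 365 and 374 FPKM in int 2, or 291 ± 26.9 and 369 ± 4.64 (mean ± SD, n = 3 libraries each). The whole columns also summed to less in int 3, at 490383 to 526380 FPKM against 532807 to 534135 FPKM in int 2.

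**Figure D1:**
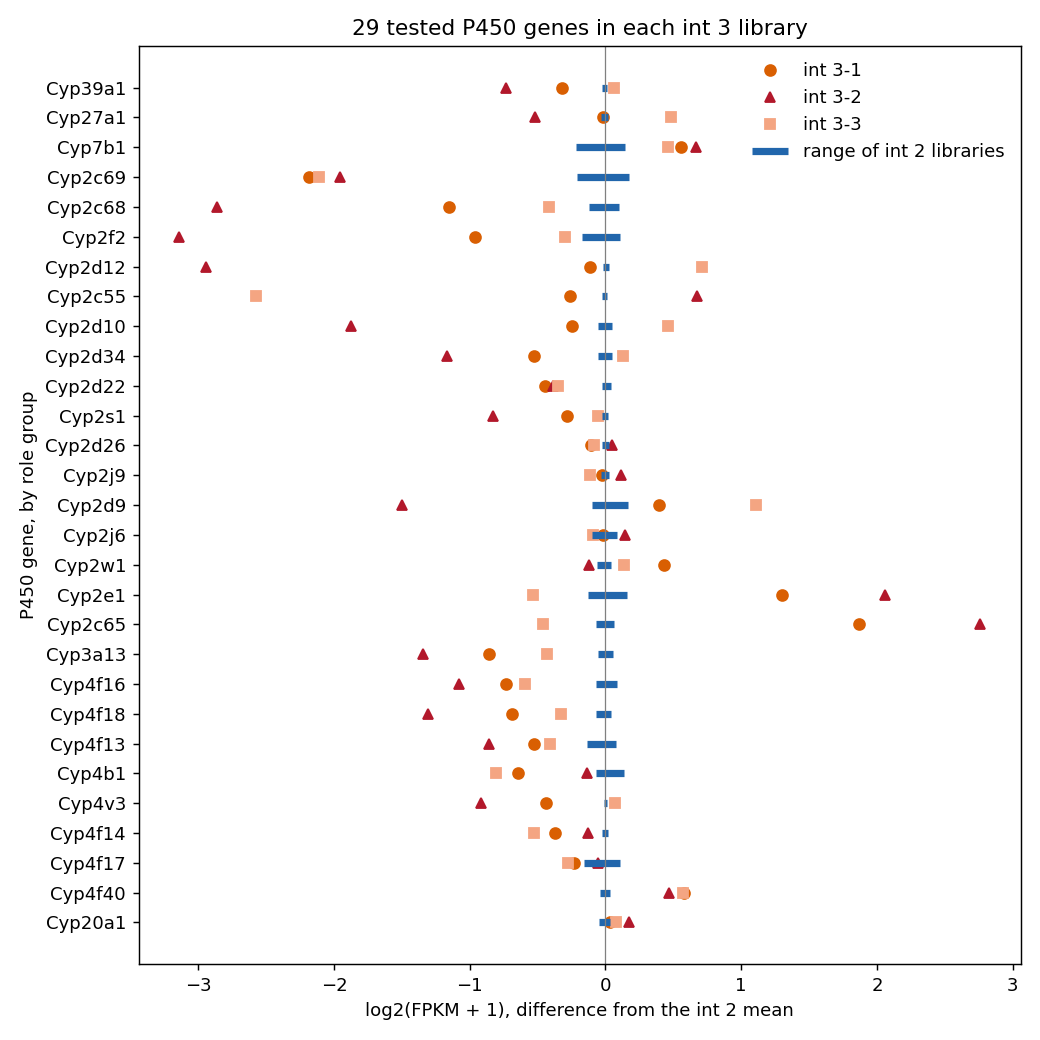
The 29 tested P450 genes, by role group, are drawn down the page; the horizontal axis is the log2(FPKM + 1) of each int 3 library minus the mean of int 2, with markers for int 3-1, int 3-2 and int 3-3 and a bar for the range of the int 2 libraries. Cyp2c69 and Cyp4f40 have their 3 markers together away from 0, while Cyp2f2, Cyp2d12, Cyp2c55 and Cyp2c65 are spread out with int 3-1 between the other libraries.

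Family 2 held most of the P450 transcripts, with 46 rows of which 16 were tested. In int 2 the order of levels was led by Cyp2d34 at 59.1 ± 2.11 FPKM, Cyp2c55 at 51.6 ± 0.761 FPKM and Cyp2c68 at 39.7 ± 3.19 FPKM (mean ± SD, n = 3 libraries). Cyp4f16, Cyp2s1 and Cyp2d10 came next, and the first 11 places were held by the same genes in the same order in all 3 int 2 libraries. In int 3 the leading gene differed between libraries. It was Cyp2c55 in int 3-1 and int 3-2 and Cyp2d34 in int 3-3, where Cyp2c55 took place 15 of 29.

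Of the Cyp2c subfamily 4 of 15 rows were tested, and 1 fell while 3 did not pass. These enzymes oxidise drugs and turn arachidonic acid into epoxides and hydroxy acids. Cyp2c69 stood at 0.348, 0.581 and 0.419 FPKM in int 3, against 4.30, 5.90 and 5.28 FPKM in int 2. All 3 int 3 libraries were far below all 3 int 2 libraries, and int 3-2 and int 3-3 were alike. The fall had a log2 change of -2.08 (SE 0.12, limma adjusted p = 0.00039), and the int 2 mean was 11.5 times the int 3 mean. Behind it were 21, 35 and 26 fragments in int 3 and 261, 360 and 319 fragments in int 2. Cyp2c69 met the level for testing only through its int 2 values.

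Cyp2c55, a colonic P450 that hydroxylates arachidonic acid, stood at 42.8, 82.8 and 7.85 FPKM in int 3, against 50.7, 52.1 and 52.0 FPKM in int 2. The int 2 libraries were nearly level, and the int 3 libraries lay on both sides of them, 10.6-fold apart between int 3-2 and int 3-3. A common difference was not called (log2 change -0.72, SE 0.77, limma adjusted p = 0.55), and its sign turned to 0.20 without int 3-3. Cyp2c65, its neighbour and a fatty acid epoxygenase of the gut, stood at 8.80, 17.2 and 0.955 FPKM in int 3, against 1.56, 1.70 and 1.81 FPKM in int 2. Int 3-1 and int 3-2 were above all int 2 libraries and int 3-3 was below them. Its log2 change was 1.39 (SE 0.77, limma adjusted p = 0.26, 7e-06 to 0.83 over all alternatives), and without int 3-3 it passed with a log2 change of 2.31 (adjusted p = 0.00167).

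Cyp2c68 had the reverse order within int 3, at 17.2, 4.59 and 29.4 FPKM, against 40.2, 36.3 and 42.6 FPKM in int 2. All int 3 libraries were below all int 2 libraries, but by uneven amounts. Its log2 change was -1.48 (SE 0.58, limma adjusted p = 0.14, 2.4e-05 to 0.77 over all alternatives), and it passed without int 3-2 (-0.79, adjusted p = 0.0396) and without int 3-3 (-2.01, adjusted p = 0.0173). The summed level of all 15 Cyp2c rows was 69.8, 105 and 39.4 FPKM in int 3 and 97.5, 96.8 and 102 FPKM in int 2. The sum thus had the order of Cyp2c55 and Cyp2c65, its opposite members partly cancelling.

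The 4 tested Cyp2c genes lie in a cluster on chromosome 19 in the order Cyp2c55, Cyp2c65, Cyp2c68 and Cyp2c69 (RefSeq, GRCm38.p6). The 250 bases before the start site of each are shown because these neighbours moved in different ways. Positions are in GRCm38.p6, whereas the deposited values were made on GRCm39. The windows are chr19:39006769-39007018 on the plus strand for Cyp2c55, chr19:39060756-39061005 on the plus strand for Cyp2c65, chr19:39741102-39741351 on the minus strand for Cyp2c68 and chr19:39886770-39887019 on the minus strand for Cyp2c69. Capitals mark matches, on either strand, to 3 motifs that do not overlap each other in these windows. They are AAGTCCA, part of the site bound by the nuclear receptor Hnf4a, TTTATNG, the core bound by Cdx factors and by Hox factors such as Hoxb13, and GCGTG, the core bound by the aryl hydrocarbon receptor Ahr.
Cyp2c55: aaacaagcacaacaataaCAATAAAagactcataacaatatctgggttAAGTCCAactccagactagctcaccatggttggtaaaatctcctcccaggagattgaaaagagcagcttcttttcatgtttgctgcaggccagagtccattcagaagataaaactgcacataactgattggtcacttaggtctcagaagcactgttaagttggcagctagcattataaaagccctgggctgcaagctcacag
Cyp2c65: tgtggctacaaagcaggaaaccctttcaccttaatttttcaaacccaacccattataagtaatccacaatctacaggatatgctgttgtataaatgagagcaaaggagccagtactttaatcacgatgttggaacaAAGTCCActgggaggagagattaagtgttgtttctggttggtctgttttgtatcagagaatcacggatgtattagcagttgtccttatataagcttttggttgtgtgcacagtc
Cyp2c68: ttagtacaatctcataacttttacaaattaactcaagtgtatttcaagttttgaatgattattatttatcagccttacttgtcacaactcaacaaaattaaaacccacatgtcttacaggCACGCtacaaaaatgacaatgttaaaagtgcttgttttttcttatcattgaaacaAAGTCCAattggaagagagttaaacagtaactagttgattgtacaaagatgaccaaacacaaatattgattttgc
Cyp2c69: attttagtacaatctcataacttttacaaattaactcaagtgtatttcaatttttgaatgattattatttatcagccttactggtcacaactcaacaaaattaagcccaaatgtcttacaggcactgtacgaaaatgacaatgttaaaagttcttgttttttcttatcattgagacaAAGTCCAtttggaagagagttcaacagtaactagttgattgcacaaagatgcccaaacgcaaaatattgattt

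AAGTCCA was found in each of the 4 windows, with its first base at position -202 in Cyp2c55, -114 in Cyp2c65, -75 in Cyp2c68 and -73 in Cyp2c69, counted back from the start site. Of all 32851 RefSeq promoter windows of this length 3.36% hold it, and so do 7 of the 14 windows of Cyp2c genes and 6 of the 72 windows of other P450 genes. TTTATNG was found in Cyp2c55 alone among the 4, at position -232, and is held by 9.81% of all windows. GCGTG was found in Cyp2c68 alone among the 4, at position -130, and is held by 28.2% of all windows. Cyp2c68 and Cyp2c69, whose values within int 3 ran differently, share 91.3% of aligned positions in these windows, and Cyp2c55 and Cyp2c65, which ran alike, share 51.8%. A match describes these letters and is not a measured binding site. RefSeq windows were at hand for 23 of the 29 tested genes. Hnf4a itself was at 98.3, 93.9 and 105 FPKM in int 3 and at 111, 108 and 111 FPKM in int 2, a difference that did not pass (log2 change -0.15, SE 0.06, limma adjusted p = 0.12).

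**Figure D2:**
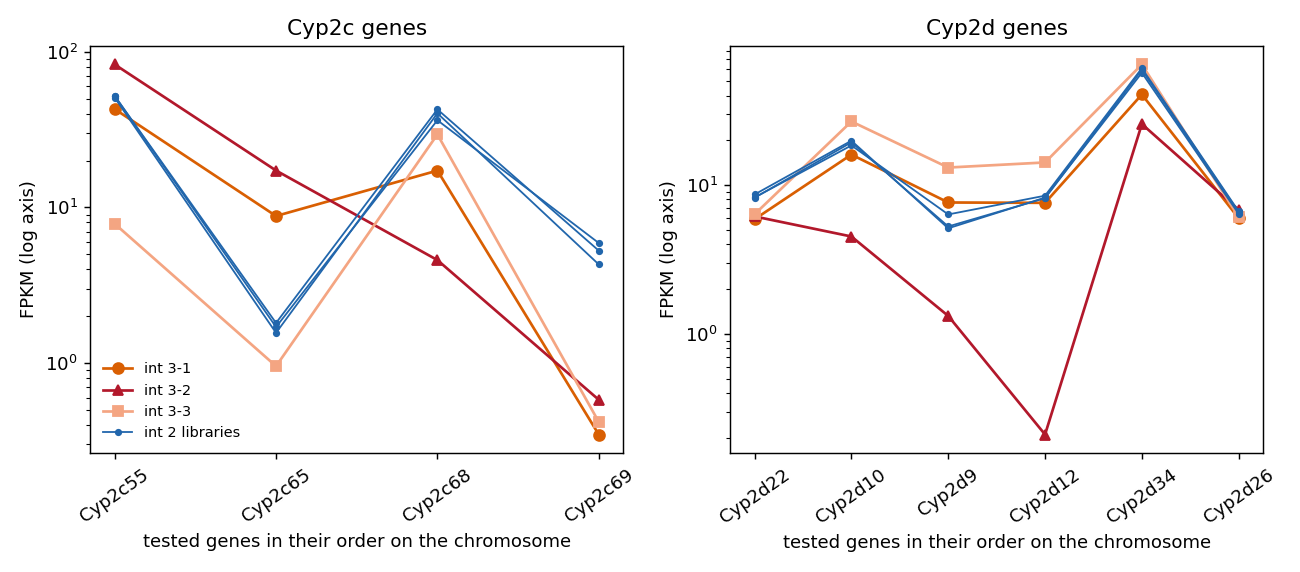
FPKM on a log axis is drawn for the tested Cyp2c genes (left) and Cyp2d genes (right) in their order along the chromosome, with a line per library, int 3 in reds and int 2 in blue. The int 2 lines run close together; int 3-2 is above int 2 at Cyp2c55 and Cyp2c65, below it at Cyp2c68, and reaches 0.210 FPKM at Cyp2d12 inside the Cyp2d cluster.

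Of the Cyp2d subfamily, a group of drug-oxidising enzymes, 6 of 8 rows were tested, and 1 fell while 5 did not pass. Counting tested genes alone, the cluster on chromosome 15 runs Cyp2d22, Cyp2d10, Cyp2d9, Cyp2d12, Cyp2d34 and Cyp2d26 (RefSeq, GRCm38.p6). The 4 inner genes were all lowest in int 3-2 and highest in int 3-3, while the outer pair was nearly level within int 3, a contrast noticed after the values were seen. Cyp2d12 stood at 7.59, 0.210 and 14.2 FPKM in int 3, against 8.48, 8.23 and 8.16 FPKM in int 2. Int 3-3 exceeded int 3-2 by 67.5-fold, on 835 and 12 fragments. Cyp2d9, a steroid hydroxylase of male mouse liver, stood at 7.63, 1.32 and 13.1 FPKM in int 3, against 6.34, 5.12 and 5.27 FPKM in int 2. For both genes the int 3 libraries lay on both sides of int 2.

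Cyp2d10 ran likewise, at 16.0, 4.51 and 26.8 FPKM in int 3, against 18.5, 19.9 and 19.4 FPKM in int 2. Cyp2d34, the most abundant of them, was at 40.6, 25.7 and 64.7 FPKM in int 3, against 61.0, 56.9 and 59.4 FPKM in int 2. The int 3 libraries again lay on both sides of int 2 for these genes. Log2 changes were -0.78 (SE 0.88) for Cyp2d12, 0.00 (SE 0.63) for Cyp2d9, -0.56 (SE 0.55) for Cyp2d10 and -0.52 (SE 0.30) for Cyp2d34, with limma adjusted p of 0.57, 1, 0.52 and 0.28. Without int 3-2 the changes of Cyp2d12 and Cyp2d10 turned to 0.30 and 0.10, and Cyp2d9 passed as higher at 0.75 (adjusted p = 0.0457, 0.016 to 1 over all alternatives). Without int 3-3 Cyp2d9 turned to -0.55, and Cyp2d34 passed as lower at -0.85 (adjusted p = 0.0132, 4.3e-05 to 0.84 over all alternatives).

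The outer genes of the cluster behaved differently. Cyp2d22, held to be the nearest mouse counterpart of the main human drug-oxidising CYP2D enzyme, stood at 5.89, 6.15 and 6.36 FPKM in int 3, against 8.25, 8.64 and 8.22 FPKM in int 2. It fell, with all int 3 libraries below all int 2 libraries (log2 change -0.39, SE 0.06, limma adjusted p = 0.0075), and did not pass without int 2-2 (-0.37, adjusted p = 0.0529, 1.3e-06 to 0.45 over all alternatives). Cyp2d26 stood at 5.98, 6.80 and 6.10 FPKM in int 3, against 6.65, 6.40 and 6.55 FPKM in int 2, with overlapping groups (log2 change -0.05, SE 0.06, limma adjusted p = 0.64). The promoter windows of the neighbours Cyp2d10 (chr15:82407195-82407444, minus strand) and Cyp2d9 (chr15:82452127-82452376, plus strand) are shown because these genes ran together. They share 82.3% of aligned positions in these GRCm38.p6 windows, and hold none of the 3 motifs, so that they carry no capitals.
Cyp2d10: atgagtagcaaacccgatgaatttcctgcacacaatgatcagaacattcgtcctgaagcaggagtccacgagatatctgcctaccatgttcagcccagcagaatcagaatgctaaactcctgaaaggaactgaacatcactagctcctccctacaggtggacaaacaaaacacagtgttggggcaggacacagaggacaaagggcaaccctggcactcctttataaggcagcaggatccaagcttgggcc
Cyp2d9: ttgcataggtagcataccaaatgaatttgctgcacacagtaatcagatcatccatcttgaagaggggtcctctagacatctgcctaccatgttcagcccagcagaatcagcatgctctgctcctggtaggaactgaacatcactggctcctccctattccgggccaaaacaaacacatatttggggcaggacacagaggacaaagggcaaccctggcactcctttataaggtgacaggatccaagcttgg

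The other family 2 genes also split into spread and level members. Cyp2e1, which oxidises ethanol, acetone and small solvents, stood at 3.56, 6.71 and 0.275 FPKM in int 3, against 0.695, 0.807 and 1.06 FPKM in int 2. It had the order of Cyp2c65, with int 3-2 at 24.4 times int 3-3. The adipocyte markers Adipoq (5.87, 11.5 and 1.34 FPKM), Cidec (2.86, 5.48 and 0.471 FPKM) and Plin1 (0.553, 1.51 and 0.124 FPKM) had this order in int 3 too. Lep, the remaining adipocyte marker, was very low and did not have it, at 0.0360, 0.162 and 0.0438 FPKM. The part of adipocytes in the result was not tested. The log2 change of Cyp2e1 was 0.94 (SE 0.62, limma adjusted p = 0.34, 2.3e-05 to 0.85 over all alternatives), and it passed without int 3-3 at 1.68 (adjusted p = 0.00341). Cyp2f2, best known for activating naphthalene in club cells of the airway, stood at 4.56, 0.226 and 7.82 FPKM in int 3, against 10.7, 8.63 and 10.3 FPKM in int 2. Every int 3 library was below every int 2 library, and int 3-2 held 14 fragments. Its log2 change was -1.47 (SE 0.69, limma adjusted p = 0.2, 0.00023 to 0.81 over all alternatives), and it passed without int 3-3 at -2.05 (adjusted p = 0.0342).

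Cyp2s1, an epithelial P450 that dioxin induces, stood at 17.2, 11.5 and 20.4 FPKM in int 3, against 21.5, 20.9 and 21.3 FPKM in int 2. It was lower in every int 3 library, with int 3-3 close to int 2. Its log2 change was -0.39 (SE 0.19, limma adjusted p = 0.21, 0.00016 to 0.81 over all alternatives), and it passed without int 3-3 at -0.56 (adjusted p = 0.0297). Cyp2w1, known in human from fetal gut and colon tumours, stood at 2.69, 1.52 and 2.01 FPKM in int 3, against 1.62, 1.78 and 1.82 FPKM in int 2. The groups overlapped (log2 change 0.15, SE 0.14, limma adjusted p = 0.5). The Cyp2j genes, whose products form epoxides from fatty acids, were more level within int 3 than Cyp2e1, Cyp2f2, Cyp2s1 and Cyp2w1. Cyp2j6 stood at 4.49, 5.15 and 4.22 FPKM in int 3, against 4.20, 4.62 and 4.91 FPKM in int 2 (log2 change 0.01, SE 0.09, limma adjusted p = 0.95). Cyp2j9 stood at 1.16, 1.38 and 1.03 FPKM in int 3, against 1.24, 1.20 and 1.15 FPKM in int 2 (log2 change -0.01, SE 0.08, limma adjusted p = 0.96). Both changes were near 0 and turned sign under some alternatives.

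Cyp3a13 was the sole tested gene of 9 Cyp3a rows, the subfamily of broad drug and steroid oxidation. It stood at 5.62, 3.72 and 7.89 FPKM in int 3, against 11.0, 10.5 and 11.5 FPKM in int 2. All int 3 libraries were below all int 2 libraries, with int 3-2 the lowest. It fell by 0.88 on the log2 scale (SE 0.22, limma adjusted p = 0.043, 8.1e-07 to 0.63 over all alternatives). The call was lost without int 3-1, int 2-1, int 2-2 or int 2-3 (adjusted p = 0.137, 0.146, 0.136 and 0.150), and also with median-of-ratios scaling, with quantile normalization and without a filter (adjusted p = 0.0579, 0.053 and 0.0875).

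Family 4 gave 8 tested genes of 21 rows, of which 1 rose, 2 fell and 5 did not pass, and the calls were all within Cyp4f. Cyp4f enzymes hydroxylate leukotrienes and other long fatty acids. Cyp4f40 stood at 19.5, 18.0 and 19.5 FPKM in int 3, against 12.9, 12.4 and 13.1 FPKM in int 2. It rose by a like amount in all 3 int 3 libraries (log2 change 0.54, SE 0.05, limma adjusted p = 0.0026) and passed whichever library was left out. Cyp4f16 stood at 15.6, 12.1 and 17.2 FPKM in int 3, against 26.3, 28.2 and 25.3 FPKM in int 2. Its int 3 values were all below its int 2 values (log2 change -0.80, SE 0.13, limma adjusted p = 0.011, 5.6e-07 to 0.4 over all alternatives), and the call was lost without int 2-1 or int 2-2 (adjusted p = 0.0571 and 0.0619). Cyp4f13 stood at 10.7, 8.26 and 11.7 FPKM in int 3, against 14.3, 16.5 and 16.8 FPKM in int 2. It fell too (log2 change -0.60, SE 0.13, limma adjusted p = 0.028, 1.3e-05 to 0.53 over all alternatives), and the call was lost without int 3-1, int 2-1, int 2-2 or int 2-3 (adjusted p = 0.0917, 0.0738, 0.120 and 0.120) and without a filter (adjusted p = 0.0588). In RefSeq order Cyp4f40, which rose, lies between Cyp4f16 and Cyp4f13, which fell, in the cluster on chromosome 17 (GRCm38.p6).

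Cyp4f14 and Cyp4f18 encode leukotriene B4 hydroxylases, the product of Cyp4f18 being that of neutrophils. Cyp4f14 stood at 9.12, 11.0 and 8.07 FPKM in int 3, against 11.8, 12.3 and 12.1 FPKM in int 2. Cyp4f18 stood at 1.19, 0.421 and 1.80 FPKM in int 3, against 2.61, 2.35 and 2.59 FPKM in int 2. Both had all int 3 values below all int 2 values, but in Cyp4f14 int 3-2 was nearest to int 2 and in Cyp4f18 farthest from it. Their log2 changes were -0.34 (SE 0.10) and -0.77 (SE 0.24), each with limma adjusted p = 0.078 (5.4e-06 to 0.73 and 7.1e-06 to 0.71 over all alternatives). Both passed without int 3-2 (-0.45 and -0.51, adjusted p = 0.00544 and 0.029), and Cyp4f18 also without int 3-3 (-0.996, adjusted p = 0.00881). Cyp4f14 passed as lower with median-of-ratios scaling and with quantile normalization too (-0.39 and -0.40, adjusted p = 0.0173 and 0.0188). Cyp4f17 stood at 1.06, 1.33 and 0.994 FPKM in int 3, against 1.60, 1.16 and 1.51 FPKM in int 2, with overlapping groups (log2 change -0.19, SE 0.11, limma adjusted p = 0.27).

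The summed level of the 9 Cyp4f rows was 57.2, 51.1 and 59.4 FPKM in int 3 and 69.6, 72.9 and 71.5 FPKM in int 2, so that the groups did not overlap. By contrast, the sum of the 8 Cyp2d rows was 83.8, 44.7 and 131 FPKM in int 3 and 109, 105 and 107 FPKM in int 2. Cyp4b1, a fatty acid hydroxylase that also activates plant toxins, stood at 1.07, 1.93 and 0.848 FPKM in int 3, against 2.56, 2.07 and 2.08 FPKM in int 2. Every int 3 value was below every int 2 value (log2 change -0.53, SE 0.18, limma adjusted p = 0.1, 1.4e-05 to 0.74 over all alternatives), and it passed without int 3-2 at -0.72 (adjusted p = 0.00525). Cyp4v3, the mouse counterpart of the human gene mutated in Bietti crystalline dystrophy, stood at 4.22, 2.74 and 6.40 FPKM in int 3, against 6.03, 6.12 and 6.02 FPKM in int 2. Int 3-3 was above int 2 and the other int 3 libraries below it (log2 change -0.43, SE 0.23, limma adjusted p = 0.25, 4.1e-05 to 0.83 over all alternatives), and it passed without int 3-3 at -0.68 (adjusted p = 0.0128).

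**Figure D3:**
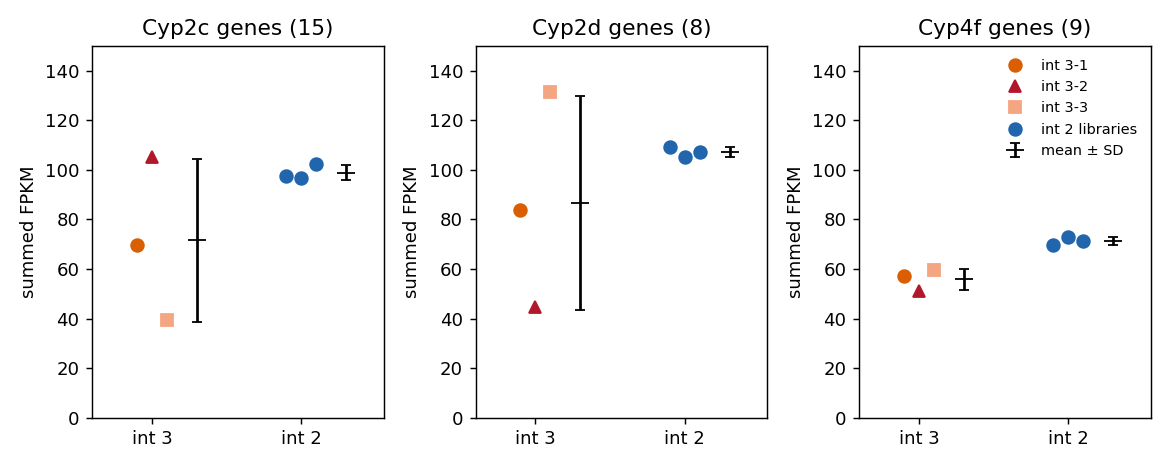
Summed FPKM of the Cyp2c (15 rows), Cyp2d (8 rows) and Cyp4f (9 rows) genes is drawn per library, int 3 left of int 2, with the mean ± SD of the 3 libraries beside the points. Cyp2c sums span 39.4 to 105 and Cyp2d sums 44.7 to 131 within int 3, in opposite order of int 3-2 and int 3-3, while all Cyp4f sums of int 3 lie below those of int 2.

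Of the sterol and bile acid enzymes 3 of 6 rows were tested, and 1 rose while 2 did not pass. Cyp7b1, which hydroxylates oxysterols and so limits or redirects their signals, stood at 1.97, 2.21 and 1.79 FPKM in int 3, against 1.13, 1.24 and 0.745 FPKM in int 2. All int 3 libraries were above all int 2 libraries (log2 change 0.56, SE 0.12, limma adjusted p = 0.026, 8.1e-05 to 0.4 over all alternatives). The call was lost without int 3-1, int 2-1, int 2-2 or int 2-3 (adjusted p = 0.103, 0.0885, 0.0626 and 0.0762) and without a filter (adjusted p = 0.0591). Cyp27a1, the mitochondrial sterol side-chain hydroxylase, stood at 8.14, 5.44 and 11.9 FPKM in int 3, against 8.36, 8.04 and 8.33 FPKM in int 2. The int 3 libraries lay on both sides of int 2 (log2 change -0.02, SE 0.24, limma adjusted p = 0.96), and the sign turned to 0.23 without int 3-2. Cyp39a1, another oxysterol hydroxylase, stood at 6.88, 4.91 and 9.26 FPKM in int 3, against 8.66, 8.90 and 8.92 FPKM in int 2. It too was lowest in int 3-2 (log2 change -0.33, SE 0.19, limma adjusted p = 0.28, 9.6e-05 to 0.84 over all alternatives), and passed without int 3-3 at -0.53 (adjusted p = 0.0184). Cyp20a1, whose substrate is not established, stood at 12.1, 13.4 and 12.5 FPKM in int 3, against 11.4, 12.1 and 11.9 FPKM in int 2. Its int 3 values were just above its int 2 values (log2 change 0.09, SE 0.06, limma adjusted p = 0.32).

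**Figure D4:**
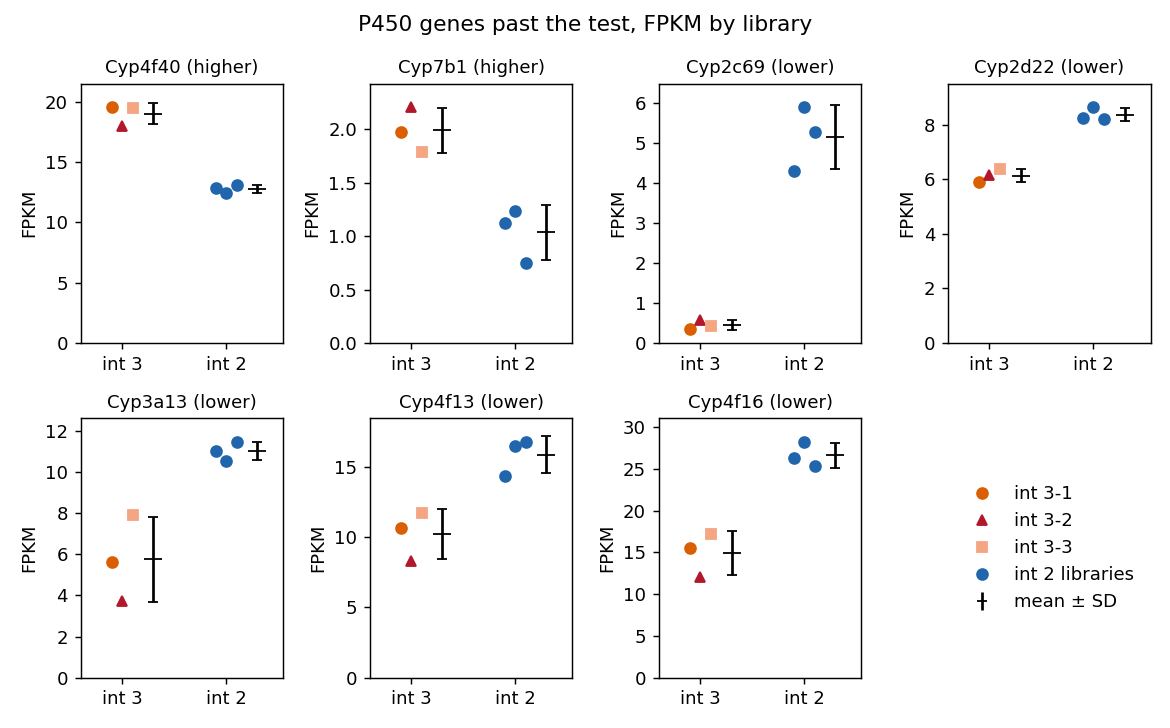
FPKM by library is drawn for the 7 P450 genes that passed, 2 higher and 5 lower in int 3, with int 3 left of int 2 and the mean ± SD of the 3 libraries beside the points. Cyp2c69 is at 0.348 to 0.581 FPKM in int 3 and at 4.30 to 5.90 FPKM in int 2, and in Cyp3a13, Cyp4f13 and Cyp4f16 the int 3-2 point is the lowest.

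The 69 untested rows were low, and 52 of them were at 0.1 FPKM or less in every library. Only 3 reached FPKM 1 in any library. Cyp11a1, which starts steroid synthesis, stood at 0.355, 0.112 and 0.327 FPKM in int 3, against 1.18, 1.18 and 0.914 FPKM in int 2, on 12 to 38 and 98 to 127 fragments. All int 3 values were below all int 2 values, and in a fit without a filter it was lower (log2 change -0.73, SE 0.10, limma adjusted p = 0.017). Cyp26b1, which breaks down retinoic acid, stood at 0.798, 1.23 and 0.123 FPKM in int 3, against 0.147, 0.102 and 0.155 FPKM in int 2. It had the order of Cyp2c65 and Cyp2e1 within int 3, with int 3-3 inside the int 2 range (log2 change 0.54, SE 0.25, limma adjusted p = 0.28 without a filter). Cyp2r1, which starts vitamin D activation, stood at 0.940, 0.539 and 0.817 FPKM in int 3, against 1.04, 0.898 and 1.53 FPKM in int 2, with overlapping groups (limma adjusted p = 0.33 without a filter).

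The Ahr-inducible family 1 stayed under the level for testing, and its members named here were picked after their values were seen. Cyp1a1, the classic target of the aryl hydrocarbon receptor in gut epithelium, stood at 0.284, 0.221 and 0.389 FPKM in int 3, against 0.251, 0.229 and 0.336 FPKM in int 2. The groups overlapped, on 21 to 38 and 22 to 32 fragments (log2 change 0.03, SE 0.06, limma adjusted p = 0.81 without a filter). Cyp1b1, its relative of mesenchymal cells, stood at 0.329, 0.228 and 0.177 FPKM in int 3, against 0.124, 0.141 and 0.113 FPKM in int 2. Its int 3 values were above its int 2 values without passing (log2 change 0.14, SE 0.05, limma adjusted p = 0.15 without a filter). Just inside the level for testing were Cyp2c69 and Cyp2e1, with 3 libraries at FPKM 1 or more, and just outside were Cyp11a1 and Cyp2r1, with 2.

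Several members have near-identical neighbours, and how fragments shared between genes were counted is not given in the sources used here. The coding sequence of Cyp2c69 is 97.9% identical to that of Cyp2c40, with an identical stretch of 282 bases, and Cyp2c68 is 97.2% identical to Cyp2c67 and Cyp2c65 96.3% to Cyp2c66 (GENCODE M21 transcripts). The inner Cyp2d genes are 91.6% to 94.7% identical to their nearest relative, and Cyp4f16 is 92.0% identical to Cyp4f37. Values of these genes are therefore uncertain. In the table as deposited most of these relatives held few fragments, such as 2, 1 and 5 for Cyp2c40 in int 3 and 7, 6 and 5 in int 2. The nearest relative of Cyp2d12 is Cyp2d9, which held 430, 74 and 759 fragments in int 3 and 359, 291 and 297 in int 2. Cyp4f40, Cyp2d22, Cyp3a13 and Cyp4f13 are less alike to their nearest relative, at 76.8% to 84.1%.

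Genes that serve or control the P450 enzymes were counted from lists, and each count is to be read against the 8.64% of all tested genes that rose and the 6.7% that fell. Of the 8 tested genes of electron supply 0 rose, 1 fell and 7 did not pass, with a median log2 change of -0.02. Por, the reductase of most P450 enzymes, stood at 23.5, 27.3 and 21.2 FPKM in int 3, against 18.2, 18.1 and 19.1 FPKM in int 2. Its int 3 values were above its int 2 values without passing (log2 change 0.35, SE 0.09, limma adjusted p = 0.052). Cyb5a, a cytochrome that helps some P450 reactions, was level at 115 ± 2.22 and 116 ± 2.73 FPKM (SD, n = 3 libraries each; limma adjusted p = 0.89). Fdxr, the mitochondrial reductase, fell to 5.22, 5.48 and 6.38 FPKM in int 3, against 9.60, 8.68 and 7.83 FPKM in int 2 (log2 change -0.54, SE 0.10, limma adjusted p = 0.017), a call lost without int 3-1, int 2-1 or int 2-2 (adjusted p up to 0.083).

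Heme genes changed more often, with 4 of 10 higher, 1 lower and 5 not passing (median 0.06). Hmox1, which breaks heme down, rose to 6.84 ± 1.98 FPKM in int 3, against 2.32 ± 0.0774 FPKM in int 2 (log2 change 1.21, SE 0.18, limma adjusted p = 0.008). Alas1, the first enzyme of heme synthesis, rose to 33.8, 41.0 and 23.9 FPKM in int 3, against 18.0, 18.4 and 18.7 FPKM in int 2. Its adjusted p of 0.036 in limma reached 0.14, and the call was lost without int 3-1 or any int 2 library. Urod, also of heme synthesis, fell to 24.9 ± 1.22 FPKM in int 3, against 34.1 ± 1.46 FPKM in int 2 (log2 change -0.44, limma adjusted p = 0.0062).

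Of 15 tested receptors and factors of P450 induction 2 rose, 1 fell and 12 did not pass (median 0.06), a share of calls near the 15.3% of all tested genes. Nr1h4, the bile acid receptor, rose to 24.4, 23.0 and 25.7 FPKM in int 3, against 13.6, 13.8 and 14.3 FPKM in int 2 (log2 change 0.77, SE 0.06, limma adjusted p = 0.00097). Rarg, a retinoic acid receptor, rose by 0.59 (limma adjusted p = 0.028, and up to 0.12 with 1 library left out), and Vdr, the vitamin D receptor, fell by 0.47 (limma adjusted p = 0.045, and up to 0.15). Both calls were lost without int 3-1 or any int 2 library. Ahr stood at 5.08 ± 0.744 FPKM in int 3 and 4.55 ± 0.339 FPKM in int 2 (limma adjusted p = 0.45). Nr1i2, the receptor through which many drugs induce Cyp3a and Cyp2c genes in liver, stood at 18.7, 14.5 and 19.9 FPKM in int 3, against 20.9, 20.6 and 21.0 FPKM in int 2 (log2 change -0.23, SE 0.11, limma adjusted p = 0.21). Of 3 tested Ahr targets outside the P450 family 0 passed.

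The eicosanoid list, whose members make or remove substrates and products of P450 enzymes, had 4 of 8 tested genes higher, 2 lower and 2 not passing (median 0.14), while 8.64% of all tested genes rose and 6.7% fell. Ptges, a prostaglandin E synthase, rose to 3.11 ± 0.331 FPKM in int 3, against 1.64 ± 0.170 FPKM in int 2 (log2 change 0.64, limma adjusted p = 0.0073). Ptgs2, the inducible cyclooxygenase, rose by 1.18 and Pla2g4a, which frees arachidonic acid, by 0.28 (limma adjusted p = 0.024 and 0.015, and up to 0.11 and 0.088 with 1 library left out). Both calls were lost without int 3-1 or any int 2 library. Ephx1, the epoxide hydrolase of foreign compounds, fell to 15.7 ± 1.23 FPKM in int 3, against 23.0 ± 1.16 FPKM in int 2 (log2 change -0.52, limma adjusted p = 0.0067). Alox5, the first enzyme of leukotriene synthesis, fell to 0.391 ± 0.235 FPKM in int 3, against 1.48 ± 0.156 FPKM in int 2 (limma adjusted p = 0.011), a call lost without int 3-1, int 2-2 or int 2-3 (adjusted p up to 0.062). Alox5 met the level for testing only through its int 2 values. Of 9 tested retinoid genes 3 rose, 0 fell and 6 did not pass (median 0.30). They were Aldh1a3, which makes retinoic acid, and the retinol and retinal enzymes Rdh10 and Dhrs3, with log2 changes of 1.12, 0.82 and 0.46 (limma adjusted p = 0.002, 0.0017 and 0.0036).

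Markers of other cells moved beside these results, and their counts are to be read against the 8.64% of all tested genes that rose and the 6.7% that fell. Of 10 epithelial markers 0 passed, and their summed level was 6768 to 9215 FPKM in int 3 and 7873 to 7894 FPKM in int 2, with Epcam at 639 ± 44.7 and 689 ± 10.04 FPKM. Of 4 B cell markers 4 fell (4.05 to 36.2 FPKM summed in int 3, 124 to 130 in int 2), of 6 macrophage markers 3 rose and 1 fell (276 to 368 and 384 to 389 FPKM), and of 4 mesothelial markers 2 were tested and both rose (6.40 to 9.11 and 0.818 to 1.36 FPKM). Most of the macrophage sum was Lyz2, the marker that fell (234, 197 and 282 FPKM in int 3, 331, 338 and 335 FPKM in int 2). Upk3b, a tested mesothelial marker, met the level for testing only through its int 3 values. Of 5 fibroblast markers 3 rose (284 to 358 and 265 to 266 FPKM), and of 6 smooth muscle markers 2 fell (3230 to 3805 and 4028 to 4041 FPKM). The 4 adipocyte markers, of which 1 was tested and 0 passed, summed to 1.98 to 18.6 FPKM in int 3 and 1.77 to 2.42 FPKM in int 2. The part of these cells in the P450 results was not tested. Of 9 hepatocyte markers 3 were tested and 2 fell, and their summed level was 12.3 to 27.2 FPKM in int 3 and 53.4 to 57.0 FPKM in int 2. Most of that sum was Ttr, which fell to 11.7, 7.29 and 16.6 FPKM in int 3, against 50.2, 51.8 and 48.5 FPKM in int 2. Alb fell as well, was at 1.77 FPKM or less in every library and met the level for testing only through its int 2 values. Tat had 7.39, 4.396 and 10.2 FPKM in int 3 and 3.12, 3.37 and 3.37 FPKM in int 2 without passing, and Fgg was at 0 in all libraries. Of 6 markers of small intestinal enterocytes 2 were tested and 0 passed (76.8 to 176 and 75.3 to 85.9 FPKM), and of 6 distal Hox genes 4 were tested and 0 passed (27.1 to 312 and 309 to 313 FPKM). Of 5 squamous markers 0 were tested (0.786 to 1.26 and 0.577 to 0.933 FPKM).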

How the data were processed

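The authors deposited 1 table of FPKM values with 35434 gene symbols and 6 columns, its columns being matched to samples by their titles. They used GRCm39, per the submitters' processing notes. Which aligner, counter and annotation were used is not given in the sources used here. Genes with 3 or more libraries at or above FPKM 1 were tested for int 3 minus int 2 on log2(FPKM + 1), a scale that understates changes of low genes. The test was limma 3.58.1 in R 4.3.3 (eBayes with trend, two-sided, Benjamini-Hochberg over 12525 genes, threshold 0.05). It takes the spread of a gene as equal in both groups. It was tried on simulated data with equal spread in both groups and independent genes. That trial cannot show how its p-values behave with the uneven spread of int 3 and int 2. Fragment totals came from the steps of the values (95.3% of the 300 shortest genes had whole lengths within 0.05 bases). Members, lists and tests were chosen with earlier results of these data known. Every tested P450 gene is named, with untested ones that reach FPKM 1, of each list of partner and regulator genes the called genes with the 3 smallest p in each direction, and Por, Cyb5a, Ahr, Nr1i2, Hnf4a, Epcam and Hoxb13. Other cell markers, such as Cdx2, Adipoq, Ttr and Tat, are named outside this rule. A gene that this rule names is not reported here. Alternatives were pseudocounts, filters, scalings, a replicate block, library weights, a robust prior, leaving out each library, and int 2 averaged to 1 sample. Promoters are from RefSeq, and coding sequences, the longest open reading frames, from GENCODE M21. Other steps used Python 3.11.15.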

Additional observations from a re-analysis of the deposited data

How the results depend on the processing

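The counts rest on which libraries are taken as independent. With 1 library left out, the genes called in all ranged from 615 to 4913 against 1921, P450 genes that rose from 1 to 4 against 2, P450 genes that fell from 1 to 12 against 5, and partner and regulator genes called from 8 to 29 against 18. With int 2 averaged to 1 sample limma called 0 genes in all, 0 P450 genes higher, 0 lower and 0 partner genes, while 1130 of 12525 genes and 6 of 29 P450 genes had an unadjusted p under 0.05. With library weights, whose estimation did not converge, it called 9221 genes, 6 P450 genes higher, 17 lower and 42 partner genes. With the replicate number as a block it called 889 genes, 3 P450 genes lower and 10 partner genes, without Cyp3a13 and Cyp4f13 (adjusted p = 0.056 and 0.0638). Same-numbered libraries did not deviate together (r = -0.01, 0.00 and -0.02 for numbers 1, 2 and 3). The int 2 libraries differed little (SD of the log2 difference 0.110 to 0.115), so these r values cannot decide whether the numbers pair the samples. Without a filter 1 P450 gene rose and 11 partner genes were called, and at a mean FPKM of 5 or more, which keeps 20 P450 genes, 1 rose. Among partner genes named above, Alas1, Rarg and Vdr lost their calls without a filter and with the block, Ptgs2 without a filter, Fdxr and Pla2g4a with the block, and Vdr and Pla2g4a with median-of-ratios scaling. Of all called genes 56.3% were higher in the deposited FPKM and 67.7% of 1883 with TPM.

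Of the 7 called P450 genes, Cyp2c69 and Cyp4f40 passed under every alternative that tested them except the averaged int 2 (smallest adjusted p of any P450 gene 0.11), and none of the 7 changed direction. Over 484 refits of single P450 genes 400 kept their direction and their side of the threshold, 29 lost a call, 32 gained one and 23 turned sign, none of the last in a called gene. Cyp2d9 turned to -0.11 and -0.12 with pseudocounts of 0.1 and 0.01, to -0.029 with median-of-ratios and -0.023 with quantile scaling, to -0.20 and -0.55 without int 3-1 and int 3-3, and to -0.05 and -0.03 without int 2-2 and int 2-3, with a range of -0.55 to 0.75 when 1 library was left out. With TPM Cyp27a1, Cyp2d26 and Cyp2j9 turned to 0.043, 0.014 and 0.040. Cyp2j6 turned to -0.033 with median-of-ratios and -0.028 with quantile scaling and -0.019 with library weights. With 1 library left out Cyp2j6 ranged from -0.057 to 0.061, Cyp2j9 from -0.068 to 0.045, Cyp27a1 from -0.27 to 0.23, Cyp2d10 from -1.06 to 0.10, Cyp2d12 from -1.53 to 0.30 and Cyp2c55 from -1.42 to 0.20, with the extremes without int 3-2 and without int 3-3. The cause of these turns was not tested. Depth limits genes such as Cyp1a1, read from 21 to 38 fragments per library, and the fragment counts cover counting error only.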

Other observations

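Among rows far below the level for testing, some held fragments in few libraries, and they are named here after their values were seen. Cyp3a44 had 8, 2 and 0 fragments in int 3-1, int 3-2 and int 3-3 and 0 in each int 2 library. Cyp2c66 had 4, 2 and 0 fragments in int 3 and 0 in each int 2 library, and its coding sequence is 96.3% identical to that of Cyp2c65, which was high in the same libraries. Cyp4f15 had 4, 1 and 0 fragments in int 3 and 0 in each int 2 library. Cyp4a30b had 16 fragments in int 3-3, 0 in the other int 3 libraries and 0, 1 and 0 in int 2. Cyp2d40 had 0 fragments in every int 3 library and 0, 0 and 6 in int 2. A count of 0 allows up to 3 fragments, and no difference is drawn from these rows.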
